A study of Capra hircus with 6 samples.

Results

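Molecular chaperones and genes of the unfolded protein response (UPR) were examined in the pineal gland of female goats (Capra hircus) at 2 stages, prepuberty and puberty. Members were taken by gene symbol: the HSP70, small heat shock protein, HSP90, HSP110, DNAJ, BAG, CCT chaperonin, mitochondrial chaperonin and PDIA families, together with CRYAB, SDF2L1, HYOU1, CALR, CANX, ATF4, DDIT3, TRIB3 and HERPUD1. This gave 79 of the 28244 genes of the count table, and 70 of them had enough counts to be tested. Of the key members, XBP1, TCP1, HSPE1, PDIA3, HSPA8, HSPA1A, DNAJA1, DNAJB1 and DNAJB11 matched no symbol and were not analysed here. Other genes of these families, among them CCT4, CCT5, CCT6A, HSPA4 and BAG1, matched none either, so the families are covered only in part. RNA sequencing was done on 3 libraries per stage. The labels call all samples untreated and give neither age nor breed. They do not state whether different animals gave the 3 libraries of a stage, and p-values therefore rest on a spread that may be technical. Pubertal goats were recognised, per the series' design text, by an inflamed vulva and by mature ovarian follicles seen in tissue sections, and glands were frozen in liquid nitrogen. The contrast of puberty with prepuberty asks which transcripts differ in the gland across this transition.

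Chaperones bind unfolded proteins and let them fold, refold or be handed to degradation. In the cytosol, HSP70 works with DNAJ co-chaperones that bring clients and with exchange factors that release them, while small heat shock proteins hold unfolded clients and the ring-shaped CCT chaperonin folds actin and tubulin. In the endoplasmic reticulum (ER), HSPA5 (also called BiP), HSP90B1 (GRP94), calreticulin, calnexin and the protein disulfide isomerases fold secreted and membrane proteins. Unfolded protein in the ER activates the UPR through the sensors ERN1, EIF2AK3 and ATF6, which raise ER chaperones and the factors ATF4 and DDIT3, whereas the heat shock factors, HSF1 foremost, raise cytosolic chaperones. Pinealocytes, the melatonin-producing cells of the gland, share the tissue with astrocytes, microglia, vessels and fibroblasts.

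Library totals ran from 18864451 to 20971065 counts, and the members held 1.21% to 1.36% of them. Levels are given as CPM, the count scaled to a common library size with TMM factors. The 22 measured pinealocyte markers summed to 9479 to 10568 CPM in prepuberty and 9982 to 11633 CPM in puberty, and none was at 0, although AANAT matched no symbol. Among all markers of other cell types, only the skeletal muscle gene MYH2 was at 0. Puberty replicate 2 stood apart in 10 choroid plexus and ependyma markers, which summed to 10899 CPM there and to 710 to 1093 CPM in the other 5 libraries. Prepuberty replicate 2 had the highest sums of its group for astrocyte, microglia, oligodendrocyte, endothelial, pericyte, fibroblast and neuron markers, and the lowest for pinealocyte markers. Because these are bulk samples, fewer cells of a type and less RNA per cell cannot be told apart.

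Few chaperone transcripts passed the test between the stages. HSPB1, HSPB8 and SDF2L1 rose and HSPA4L and DNAJC13 fell at an adjusted p under 0.05 (edgeR's quasi-likelihood test, Benjamini-Hochberg adjustment over 16588 genes, the test behind every adjusted p below unless another is named). Calls were thus 3 of 70 members higher, or 4.29% against 5.85% of all tested genes, and 2 lower, or 2.86% against 5.64%. In either direction 7.14% of the tested members were called, against 11.5% of all tested genes. With offsets that follow gene length, fitted per library, 2 members were higher and 1 lower, where 2.86% and 2.74% of all tested genes were. The groups did not overlap for 14 members that were higher in puberty (20% against 17.2% of tested genes) and for 9 that were lower (12.9% against 17.6%). The median log2 fold change, puberty over prepuberty and called the log2 change below, was 0.07 over the members and 0.01 over all tested genes. These counts changed whichever library was left out, although a fit with fewer libraries is by construction less able to make calls. Without prepuberty replicates 1, 2 or 3 the higher and lower calls numbered 0 and 0, 4 and 1, and 1 and 1, and without puberty replicates 1, 2 or 3 they numbered 1 and 1, 2 and 0, and 2 and 2. Without prepuberty replicate 1 the lowest adjusted p of any gene was 0.061, and 12 members had an unadjusted p under 0.05.

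**Figure D1:**
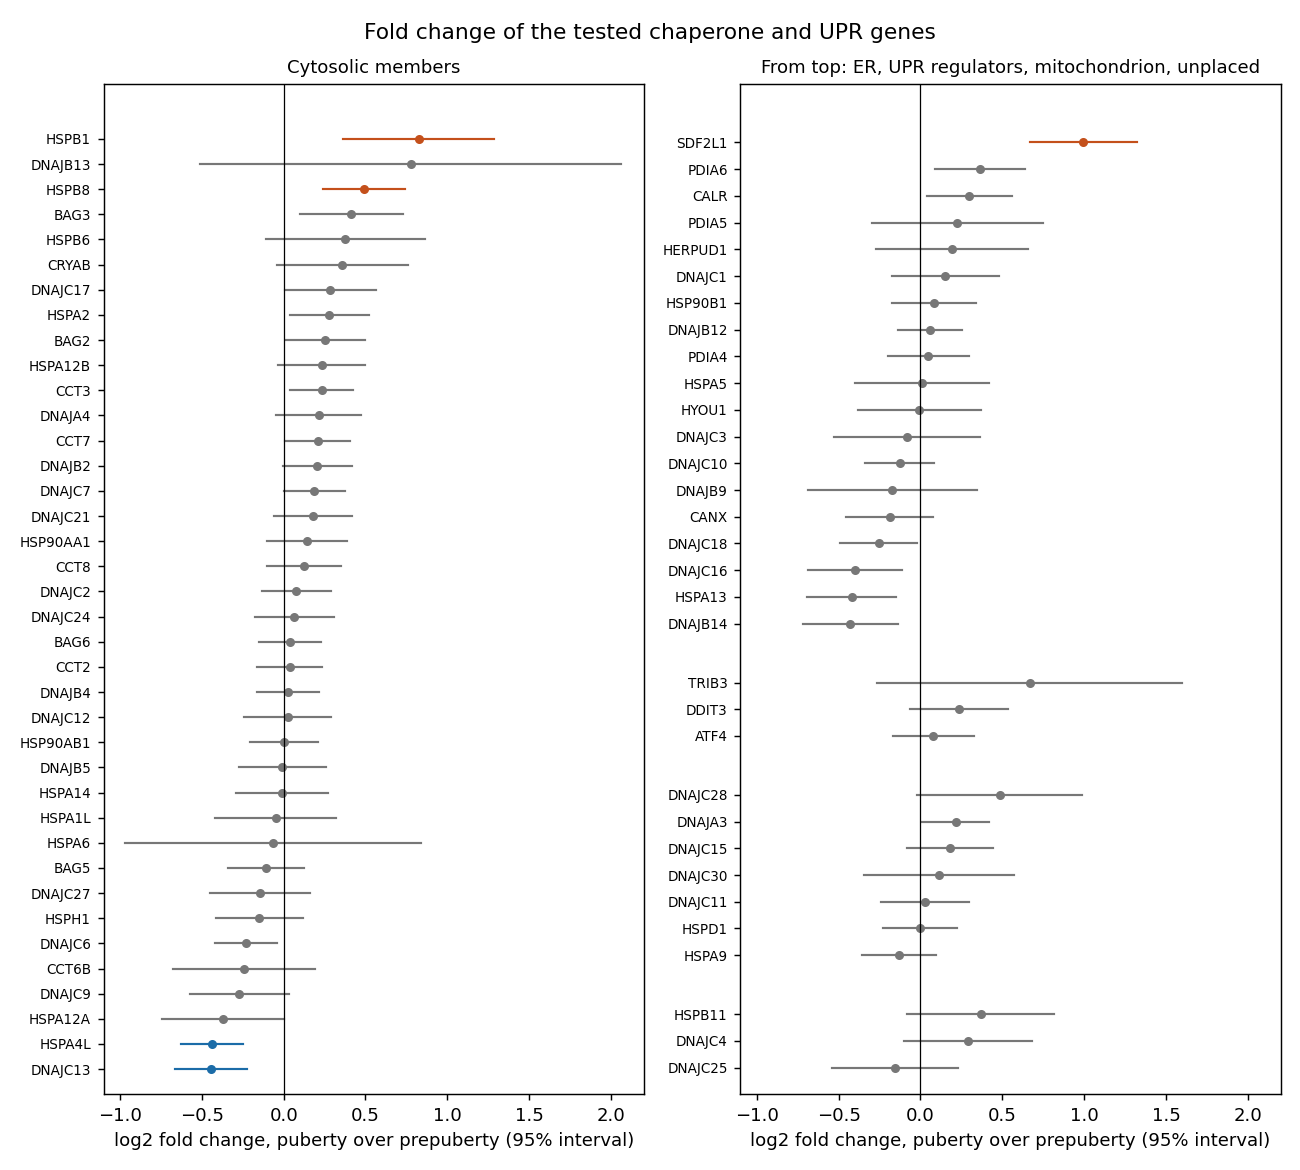
Log2 change (log2 of the fold change) of each tested member, puberty over prepuberty (x axis), with its 95% interval, by gene (y axis). The left panel holds 38 cytosolic members and the right panel 19 ER members, 3 UPR regulators, 7 mitochondrial members and 3 unplaced ones. Orange marks a rise (HSPB1, HSPB8, SDF2L1), blue a fall (HSPA4L, DNAJC13) and grey no call.

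The small heat shock proteins hold unfolded proteins without using ATP. Of 6 in the table, 4 were tested, 2 rose (5.85% of all tested genes did) and 0 fell. DESeq2 called 2 higher and 0 lower, limma-voom 1 and 0, and 2 were higher and 0 lower at an unadjusted p under 0.05. HSPB8 forms a complex with the co-chaperone BAG3 that sends damaged proteins to autophagy. It lies on chromosome 17 (15081710 to 15095306, in the authors' table, which names no build) and stood at 257, 282 and 245 CPM in prepuberty and at 352, 331 and 419 CPM in puberty. Every puberty library lay above every prepuberty library. HSPB8 rose 1.41-fold, from 261 ± 19 to 367 ± 46 CPM (SD, n = 3 per group; log2 change 0.49, SE 0.11, adjusted p = 0.027). The call was lost on leaving out prepuberty replicate 1 (adjusted p = 0.092) or 3 (0.081), or puberty replicate 1 (0.056) or 3 (0.062), with log2 changes of 0.39 to 0.56 over the 6 fits that leave out a library.

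HSPB1, also known as HSP27, protects the actin cytoskeleton under stress. On chromosome 25 (35265144 to 35266585) it stood at 35.9, 32.5 and 33.1 CPM in prepuberty and at 62.9, 75.7 and 41.4 CPM in puberty. The prepuberty libraries lay close together and the puberty libraries were spread, with puberty replicate 3 nearest to the prepuberty level. HSPB1 rose 1.77-fold (log2 change 0.83, SE 0.20, adjusted p = 0.039). Leaving out any prepuberty library ended the call (adjusted p = 0.105, 0.103 and 0.113), as did leaving out puberty replicate 1 or 2 (0.099 and 0.084). HSPB1 was also not called by limma-voom (adjusted p = 0.055), by limma on log2(FPKM + 1) or log2(FPKM + 0.1) (0.052 and 0.053), or with length offsets (log2 change 0.64, adjusted p = 0.081). Its short listed model of 606 nt belongs to the lengths that were higher in puberty as a whole (Spearman's rho of log2 change and length over all tested genes was -0.28, and genes are not independent replicates). An unnamed gene on the opposite strand overlaps HSPB1 and held 1 to 7 counts per library.

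CRYAB (αB-crystallin), a partner of HSPB1 in mixed assemblies, stood at 23.2, 23.7 and 26.2 CPM in prepuberty and at 24.8, 40.7 and 28.3 CPM in puberty. Its groups overlapped, and its high value was that of puberty replicate 2 (log2 change 0.36, 95% interval -0.04 to 0.76, adjusted p = 0.22). HSPB6, which binds 14-3-3 proteins in smooth muscle, had non-overlapping groups at 4.15 to 5.25 and 5.57 to 7.21 CPM (log2 change 0.38, adjusted p = 0.28). HSPB3 and HSPB7 stayed under the count filter, with 0 to 12 counts per library.

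Markers of pinealocytes and of other cells are given beside these genes. Of 22 pinealocyte markers, ISL2 rose and RBP3 fell (4.55% each, against 5.85% and 5.64% of all tested genes). ISL2 was called in 5 of the 6 fits that leave out a library and RBP3 in 0. With length offsets 1 pinealocyte marker was higher and 0 were lower. Of 14 astrocyte markers, 4 rose, against 5.85% of all tested genes, 10 were not called and 0 fell (0 also by DESeq2 and limma-voom, and 0 at an unadjusted p under 0.05). Of the 6 fits that leave out a library, ALDH1L1 was called in 3, ID4 in 2 and ALDOC in 1. Their summed level was 5385 to 7146 CPM in prepuberty and 7858 to 8016 CPM in puberty. Of 18 microglia and macrophage markers, 1 rose (5.56%, against 5.85% of all tested genes). It was TYROBP, called in 1 of the 6 fits that leave out a library. DESeq2 called 7 higher, and limma-voom and length offsets called 0. All 18 had a log2 change above 0, against 50.6% of all tested genes (median 0.57, 10 at an unadjusted p under 0.05). Their sums were 245 to 333 CPM in prepuberty and 292, 495 and 530 CPM in puberty. Of 11 pericyte and smooth muscle markers, 1 rose (9.09%, against 5.85% of all tested genes) and 0 fell. It was CSPG4, called in 2 of the 6 fits that leave out a library. DESeq2, limma-voom and length offsets each called 1 higher and 0 lower, and 1 was higher and 0 lower at an unadjusted p under 0.05. The 11 markers summed to 231 to 340.5 CPM in prepuberty and 248 to 323 CPM in puberty. The part of these cell types in the small heat shock protein values was not tested.

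**Figure D2:**
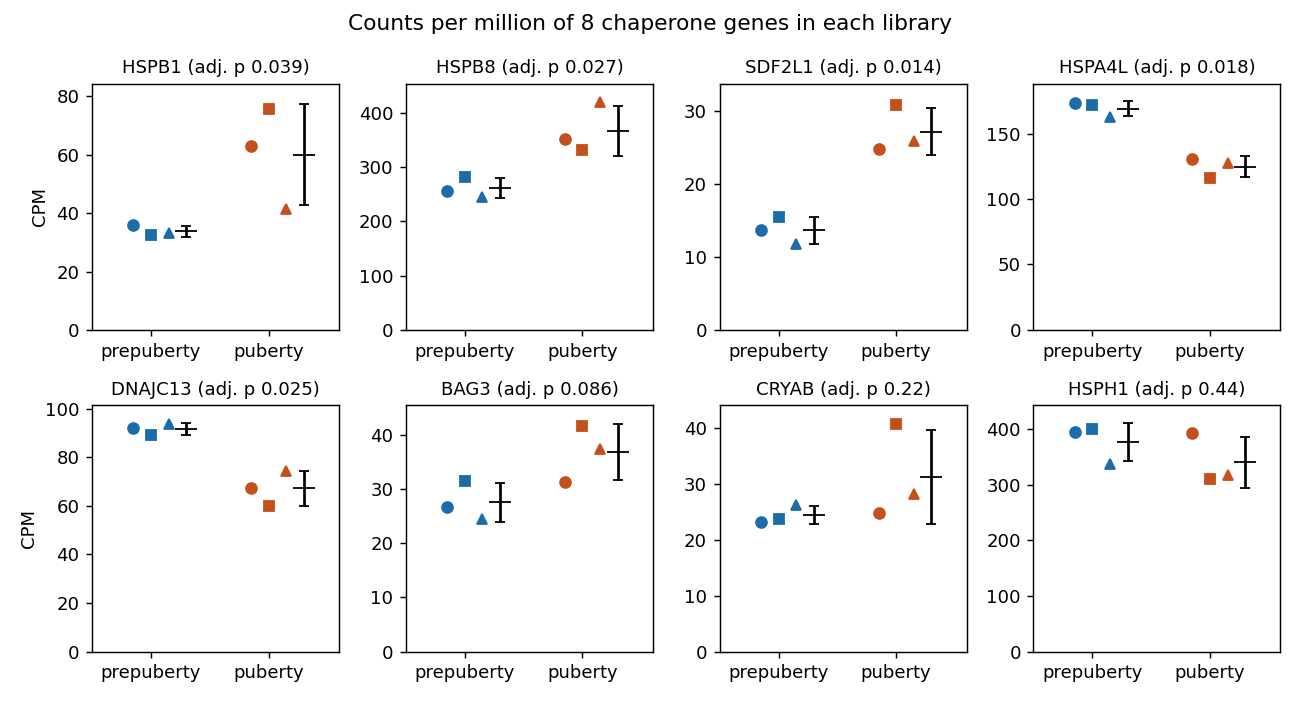
CPM (y axis, from 0) of the 5 called members and of BAG3, CRYAB and HSPH1 in each library, prepuberty in blue and puberty in orange. Circles, squares and triangles are replicates 1, 2 and 3, and black bars show the mean ± SD of 3 libraries; the groups of the 5 called genes do not overlap, whereas those of BAG3, CRYAB and HSPH1 do.

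The BAG proteins release clients from HSP70. BAG3 had 26.8, 31.5 and 24.5 CPM in prepuberty and 31.3, 41.6 and 37.4 CPM in puberty. The lowest puberty value lay just under the highest prepuberty value, and BAG3 did not pass (log2 change 0.41, 95% interval 0.10 to 0.73, adjusted p = 0.086). BAG2, an inhibitor of the ubiquitin ligase STUB1, had non-overlapping groups at 27.4 to 30.3 and 31.3 to 37.9 CPM (log2 change 0.25, adjusted p = 0.15). That value was 0.08 with length offsets. BAG5 and BAG6 had log2 changes of -0.11 and 0.04.

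HSPA4L belongs to the HSP110 branch of the HSP70 family, which exchanges nucleotide on HSP70. On chromosome 17 (40897139 to 40949395) it stood at 173, 171 and 163 CPM in prepuberty and at 131, 116 and 128 CPM in puberty. The gap between the groups was wider than the spread within either. HSPA4L was 1.35-fold lower in puberty, falling from 169 ± 5.4 to 125 ± 7.8 CPM (SD, n = 3 per group; log2 change -0.44, SE 0.08, adjusted p = 0.018). Leaving out prepuberty replicate 1 gave an adjusted p of 0.069 and leaving out puberty replicate 2 one of 0.053, and both ended the call. Its paralog HSPH1 was more abundant, with groups that overlapped at 338 to 399.6 and 311 to 393 CPM (log2 change -0.15, 95% interval -0.41 to 0.12).

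The cytosolic HSP70 genes with a row were low. HSPA2 had 20.3 to 23.7 CPM in prepuberty and 26.2 to 27.0 CPM in puberty, with no overlap (log2 change 0.28, adjusted p = 0.12). HSPA1L stood at 10.01 to 13.8 CPM and HSPA6 at 0.99 to 2.46 CPM over all libraries, and near-identical HSP70 copies make such counts uncertain. HSPA12A and HSPA12B, distant relatives, had log2 changes of -0.37 and 0.23 (adjusted p = 0.17 and 0.22). HSP90 folds kinases and receptors late in their maturation. HSP90AA1, the stress-inducible form, stood at 2782 to 3282 CPM in prepuberty and 3067 to 3438 CPM in puberty (log2 change 0.14, 95% interval -0.10 to 0.39). HSP90AB1, the constitutive form, stood at 727 ± 29 and 728 ± 43 CPM (log2 change 0.00, 95% interval -0.20 to 0.21).

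Of 15 tested cytosolic DNAJ co-chaperones, 0 rose and 1 fell (6.67%, against 5.64% of all tested genes). DESeq2 called 0 higher and 2 lower, limma-voom 0 and 1, and 1 was higher and 2 lower at an unadjusted p under 0.05. DNAJC13, also known as RME-8, acts on endosomes, where it sorts membrane cargo. On chromosome 1 (136682203 to 136816555) it stood at 91.9, 89.1 and 93.7 CPM in prepuberty and at 67.4, 59.8 and 74.4 CPM in puberty. The groups were clearly apart, and DNAJC13 was 1.36-fold lower in puberty (log2 change -0.45, SE 0.10, adjusted p = 0.025). The call was lost in each fit that left out a prepuberty library (adjusted p = 0.088, 0.053 and 0.078) and in those that left out puberty replicate 1 or 2 (0.064 and 0.065). With length offsets its log2 change was -0.29 (adjusted p = 0.095); its listed length is 6854 nt.

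DNAJC6, the neuronal auxilin that strips clathrin from vesicles, had 506, 511 and 481 CPM in prepuberty and 434, 404 and 438 CPM in puberty. Its groups did not overlap, but it did not pass (log2 change -0.23, adjusted p = 0.11). DESeq2 called it lower, and with length offsets the value was -0.09. DNAJC9, a histone co-chaperone, was at 13.1 to 13.7 and 10.4 to 11.8 CPM (log2 change -0.27, adjusted p = 0.22). DNAJB2, a neuronal co-chaperone that binds ubiquitin, and DNAJC7, which bridges HSP70 and HSP90, had non-overlapping groups in the other direction, with log2 changes of 0.21 and 0.19 (adjusted p = 0.18 and 0.17). DNAJB13, a part of the radial spokes of motile cilia, stood at 12.8 CPM in puberty replicate 2 and at 2.89 to 5.19 CPM in the other 5 libraries. It thus moved with the choroid plexus and ependyma markers of that library, and without it the log2 change was -0.12 in place of 0.78.

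The CCT chaperonin is a double ring of related subunits, of which TCP1, CCT4, CCT5 and CCT6A matched no symbol. CCT3 stood at 279.9, 303 and 307 CPM in prepuberty and at 367, 345 and 333 CPM in puberty, and CCT7 at 288 to 324 and 340.1 to 370.2 CPM. Groups did not overlap for either, and neither passed (log2 changes 0.23 and 0.21, adjusted p = 0.11 and 0.15). CCT8 and CCT2 had overlapping groups and log2 changes of 0.12 and 0.04. CCT6B, a testis-biased subunit in mammals, was at 6.28 to 9.14 CPM. CCT8L2 stayed under the filter with 5 counts in each prepuberty library and 0 in each puberty library, where a count of 0 allows up to 0.147 to 0.161 CPM (3 counts per library, counting error only). With no count filter edgeR called CCT8L2 lower, on these few counts.

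SDF2L1 was the member with the largest fold change among those called. It encodes an ER protein that works with HSPA5 and the ER co-chaperone DNAJB11 to keep clients from aggregating. It lies on an unplaced scaffold and stood at 13.8, 15.5 and 11.7 CPM in prepuberty and at 24.8, 30.9 and 26.0 CPM in puberty. The lowest puberty value was well above the highest prepuberty value. SDF2L1 rose 1.99-fold (log2 change 0.995, SE 0.15, 95% interval 0.67 to 1.32, adjusted p = 0.014). The log2 change was 0.90 to 1.10 over the fits that leave out a library, and the call was lost without prepuberty replicate 1 (adjusted p = 0.061). With length offsets it was 1.05 (adjusted p = 0.024).

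No other tested ER member passed the test. Of 19 tested ER members, 1 rose and 0 fell, where DESeq2 called 2 higher and 3 lower, limma-voom 1 and 0, and 3 were higher and 4 lower at an unadjusted p under 0.05. HSPA5, the ER HSP70 and a standard gauge of the UPR, stood at 611, 939.8 and 659 CPM in prepuberty and at 808, 621 and 796 CPM in puberty. Its highest value and its lowest were both in prepuberty, and its log2 change was 0.01 (95% interval -0.40 to 0.42). HYOU1, the exchange factor of HSPA5, stood at 151, 173 and 124 CPM in prepuberty and at 160.1, 117 and 169 CPM in puberty (log2 change -0.01, -0.38 to 0.37). HSP90B1, the ER HSP90, stood at 844 to 1007 and 878 to 1080 CPM (log2 change 0.08, -0.17 to 0.34). HERPUD1, which helps degrade ER proteins, ranged from 143 to 159 CPM in prepuberty and from 123 to 226 CPM in puberty, its highest value in puberty replicate 2. PDIA4 had a log2 change of 0.05 and PDIA5 of 0.22.

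Among the folding enzymes and lectins, CALR and PDIA6 were the ER genes whose result turned on prepuberty replicate 2. CALR, the calcium-binding lectin chaperone of the ER lumen, stood at 537, 692 and 540 CPM in prepuberty and at 739.6, 713 and 724 CPM in puberty. Its groups did not overlap (log2 change 0.30, adjusted p = 0.12). PDIA6, a disulfide isomerase, stood at 218, 268 and 213 CPM in prepuberty and at 331, 263 and 305 CPM in puberty (log2 change 0.36, adjusted p = 0.087). Without prepuberty replicate 2 both were called, with log2 changes of 0.44 (adjusted p = 0.040) for CALR and 0.49 (adjusted p = 0.049) for PDIA6, which DESeq2 also called on all 6 libraries. CANX, the membrane-bound lectin chaperone, leaned the other way without passing, from 549.9 ± 29 to 482 ± 70 CPM (log2 change -0.19, adjusted p = 0.33).

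Prepuberty replicate 2 held the highest value of 10 of the 19 ER members, or 52.6%, whereas it held the highest value of 5 of 38 cytosolic members (13.2%) and of 16.3% of all tested genes. This pattern was seen in the values and was not tested. These 10 genes were HSPA5, HYOU1, HSPA13, CANX, PDIA4, PDIA5, DNAJB9, DNAJC3, DNAJB14 and DNAJC18. Of the lists given below, it was highest for 14 of 41 ER folding and degradation partners, 3 of 7 ER stress sensors and 5 of 33 heat shock partners. Among cell markers it was highest for 8 of 15 neuron, 5 of 9 oligodendrocyte, 6 of 12 endothelial and 4 of 11 pericyte markers. Shares were lower for fibroblast (3 of 11), astrocyte (3 of 14), pinealocyte (4 of 22), choroid plexus (1 of 8) and microglia markers (0 of 18). DNAJB9, a UPR target that holds the sensor ERN1 in check, stood at 105 CPM in prepuberty replicate 2. It stood at 60.9 and 67.0 CPM in the other prepuberty libraries, a ratio of 1.64 to their mean. DNAJC3, which binds unfolded clients in the ER lumen, stood at 52.5 CPM against 33.5 and 32.5 CPM, a ratio of 1.59. The ratio was 1.66 for PDIA5, 1.48 for HSPA5, 1.32 for HSPA13, 1.25 for HYOU1 and 1.21 for PDIA4. The same library was 1.17 times the mean of the other prepuberty libraries for HSP90AA1 and 1.02 times for HSP90AB1. Without it the log2 changes of HSPA5, DNAJB9 and DNAJC3 were 0.23, 0.12 and 0.19 in place of 0.01, -0.17 and -0.08, none of them called. In that library, markers of other cells deviated from the prepuberty mean by medians of 0.18 for astrocytes, 0.25 for microglia, 0.26 for endothelium and 0.31 for fibroblasts on the log2 scale, against -0.11 for pinealocytes, -0.41 for the choroid plexus and ependyma list and -0.32 for skeletal muscle. Their part in the ER values was not tested.

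**Figure D3:**
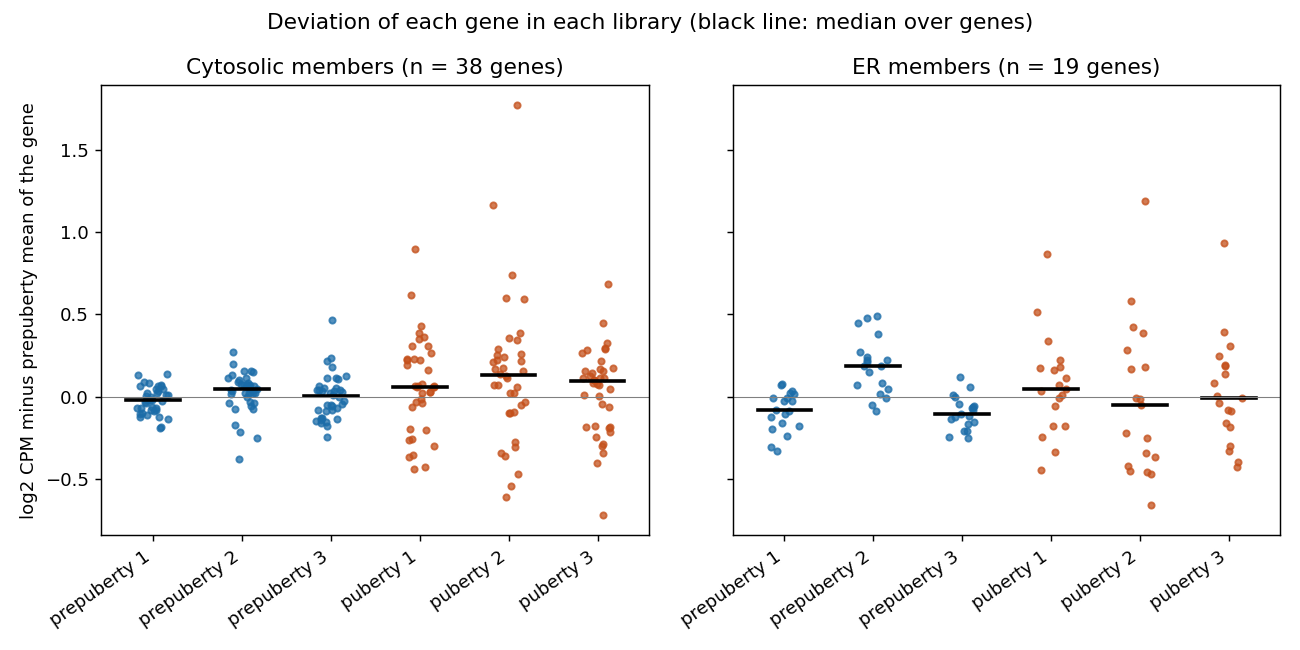
Log2 CPM of each tested gene minus its prepuberty mean (y axis) in each library (x axis), for 38 cytosolic and 19 ER members; points are genes and black lines medians over genes. In prepuberty replicate 2 the ER median is 0.19 and the cytosolic median 0.04, and in puberty the ER medians run from -0.05 to 0.05 and the cytosolic medians from 0.06 to 0.13.

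For 4 of 19 ER members (21.1%, against 17.6% of all tested genes) every puberty value was lower than any prepuberty value, a share near that of all genes. HSPA13, an ER-associated HSP70 relative, stood at 79.9, 108 and 83.1 CPM in prepuberty and at 70.8, 65.1 and 66.4 CPM in puberty (log2 change -0.42, adjusted p = 0.055). DNAJB14, an ER membrane co-chaperone, stood at 30.6, 35.9 and 26.7 CPM and then at 22.6, 22.2 and 24.5 CPM (log2 change -0.43, adjusted p = 0.062). DNAJC16 and DNAJC18, also anchored in the ER membrane, had log2 changes of -0.40 and -0.26 (adjusted p = 0.074 and 0.15). None of the 4 passed edgeR's test, although DESeq2 called HSPA13, DNAJB14 and DNAJC16 lower and edgeR with no count filter called HSPA13. Without prepuberty replicate 2 the values of HSPA13 and DNAJB14 were -0.26 and -0.30. DNAJB12, the membrane-anchored paralog of DNAJB14, was at 99.0 ± 3.8 and 103 ± 7.5 CPM (log2 change 0.06).

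The factors downstream of the ER stress sensors were not called, with 0 of 3 at an unadjusted p under 0.05 and 0 by DESeq2 or limma-voom. ATF4, the transcription factor of the integrated stress response, stood at 326, 376 and 317 CPM in prepuberty and at 341, 403 and 330.1 CPM in puberty (log2 change 0.08, 95% interval -0.17 to 0.32). DDIT3 (CHOP), its target in prolonged stress, stood at 20.1, 23.2 and 24.0 CPM and then at 26.2, 30.1 and 23.1 CPM (log2 change 0.24, -0.06 to 0.53). With length offsets the DDIT3 value was 0.02. TRIB3, a pseudokinase induced by both, was counted 9, 9 and 7 times in the prepuberty libraries and 15, 13 and 12 times in the puberty libraries. Its groups did not overlap, but at such counts the interval was wide (log2 change 0.67, -0.26 to 1.6, adjusted p = 0.32).

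Cytosolic and ER members were set side by side over the same fit. The median log2 change was 0.07 over 38 cytosolic and 0.01 over 19 ER members, with 65.8% and 52.6% of them above 0, against 50.6% of all tested genes. Called members were 2 higher (5.26%) and 2 lower (5.26%) in the cytosol, and 1 higher (5.26%) and 0 lower in the ER, against 5.85% and 5.64% of all tested genes. Groups did not overlap for 9 cytosolic members in the upward (23.7%) and 4 in the downward direction (10.5%), and for 2 (10.5%) and 4 (21.1%) ER members, against 17.2% and 17.6% of all tested genes. Summed over members, ER transcripts stood at 3753, 4651 and 3857 CPM in prepuberty and at 4410, 3935 and 4420 CPM in puberty, and cytosolic transcripts at 7027, 7748 and 7092 and then at 8065, 7432 and 7805 CPM. The ratio of ER to cytosolic sums was 0.534, 0.600 and 0.544 in prepuberty and 0.547, 0.529 and 0.566 in puberty, so the groups overlapped. HSP90AA1 alone held 2782 to 3438 CPM of the cytosolic sums, which include neither HSPA8 nor DNAJA1. As the sums lean on a few abundant genes and are not scaled by length, the ratio compares libraries only. Without prepuberty replicate 2 the medians were 0.12 for cytosolic and 0.155 for ER members, and the order of the classes turned.

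Mitochondrial members had 0 of 7 called (0 by DESeq2 and limma-voom, 1 at an unadjusted p under 0.05). HSPD1, the mitochondrial chaperonin, was at 369 ± 40 and 368 ± 12 CPM (log2 change -0.00, 95% interval -0.23 to 0.23). HSPA9, the mitochondrial HSP70, was at 172 ± 7.8 and 157 ± 17 CPM (log2 change -0.13, -0.35 to 0.10). DNAJA3, its co-chaperone, stood at 52.6 to 55.3 CPM in prepuberty and at 56.9 to 65.1 CPM in puberty (log2 change 0.22, adjusted p = 0.15). Pseudogenes of HSPD1, HSPA9 and the HSP90 genes could share reads with them.

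Other genes of these pathways came from lists outside the members. Of 7 ER stress sensors and their processing proteases, 1 fell (14.3%, against 5.64% of all tested genes) and 0 rose. Rises numbered 0 also by DESeq2 and limma-voom and at an unadjusted p under 0.05. Of the 7 genes, 3 had a log2 change above 0 and 4 one below 0, with a median of -0.09. MBTPS2, the protease that releases ATF6, was 1.45-fold lower in puberty, from 20.3 ± 0.67 to 14.0 ± 1.3 CPM (adjusted p = 0.028), and was not called with length offsets (adjusted p = 0.061). ATF6 itself ran from 42.5 to 54.7 CPM and then from 24.8 to 42.6 CPM (log2 change -0.47, adjusted p = 0.16), and ERN1 had a log2 change of -0.31 (adjusted p = 0.17). Of 18 tested targets and kinases of the integrated stress response 0 were called (limma-voom 0, DESeq2 1 lower, 3 at an unadjusted p under 0.05).

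Of 41 tested ER folding and degradation partners, 5 rose (12.2%) and 1 fell (2.44%), against 5.85% and 5.64% of all tested genes. SSR4, a subunit of the translocon-associated complex, rose 1.46-fold, and SDF2, the paralog of SDF2L1, rose 1.32-fold. PPIB, the ER cyclophilin that partners disulfide isomerases, rose 1.35-fold, from 155.5 ± 17 to 209.5 ± 12 CPM (adjusted p = 0.032). CRELD2, an ER stress-inducible gene, rose 1.49-fold (adjusted p = 0.041) and its paralog CRELD1 1.32-fold. EDEM3, which trims glycans of misfolded ER proteins, was 1.39-fold lower (adjusted p = 0.035). MANF, a UPR target retained in the ER, had a log2 change of 0.29 (adjusted p = 0.25), with its highest prepuberty value, 61.4 CPM, in replicate 2. With length offsets PPIB and CRELD2 were still called (adjusted p = 0.031 and 0.047), and SSR4, SDF2, CRELD1 and EDEM3 were not (adjusted p = 0.055, 0.130, 0.058 and 0.061).

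Of 33 tested heat shock regulators and HSP90, HSP70, chaperonin or mitochondrial partners, 5 rose (15.2%, against 5.85% of all tested genes) and 0 fell (limma-voom 0, DESeq2 1 and 5 at an unadjusted p under 0.05 for falls). With length offsets 2 rose and 1 fell, where 2.86% and 2.74% of all tested genes did. The gene that fell was the HSP90 co-chaperone CHORDC1 (adjusted p = 0.041). The median log2 change of the list was 0.07 with length offsets in place of 0.20, and its median listed length was 1470 nt against 1903 nt over all tested genes. CDC37, which loads kinases onto HSP90, rose 1.32-fold, from 222 ± 8.7 to 293 ± 20 CPM (adjusted p = 0.025). STUB1 (CHIP), the ubiquitin ligase that acts with HSP70, rose 1.27-fold, from 135 ± 2.3 to 172 ± 7.4 CPM (adjusted p = 0.028). CLPP, the mitochondrial matrix protease, rose 1.44-fold (adjusted p = 0.014). GRPEL1, the exchange factor of HSPA9, rose 1.31-fold, and VBP1, a prefoldin subunit, 1.29-fold. HSF1, the main heat shock factor, was at 33.0 ± 1.1 and 38.4 ± 4.6 CPM (log2 change 0.22, adjusted p = 0.22), and HSF2 had a log2 change of -0.23 (adjusted p = 0.15). With length offsets CLPP was still called (adjusted p = 0.033), and CDC37, STUB1, GRPEL1 and VBP1 were not (adjusted p = 0.053, 0.094, 0.204 and 0.188). Of the 6 fits that leave out a library, CLPP and SSR4 were called in 5, losing the call without prepuberty replicate 1 (adjusted p = 0.061 and 0.065). SDF2 and CRELD1 were called in 2 and CDC37, STUB1, PPIB, CRELD2, EDEM3, MBTPS2 and VBP1 in 1, with adjusted p-values of at most 0.141 in the rest, and GRPEL1 in none (adjusted p = 0.081 to 0.107). Of 20 tested immediate early genes, which respond to handling of tissue, JUN rose 1.28-fold, without a call in any of those 6 fits (adjusted p = 0.053 to 0.125), by limma-voom or with length offsets, and 0 fell (limma-voom 0, DESeq2 1 and 1 at an unadjusted p under 0.05 for falls).

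Levels of different members can be set side by side only per length, as the authors' FPKM, which scale fragments by listed length and library total. HSP90AA1 led with 450.4 ± 43 FPKM in prepuberty and 498 ± 28 FPKM in puberty (SD, n = 3 per group), followed by HSP90B1 at 357 ± 33 and 379 ± 40, HSPA5 at 304 ± 73 and 307 ± 43 and ATF4 at 293 ± 27 and 309.7 ± 35 FPKM. HSP90B1 lay above HSPA5 in each of the 6 libraries, whereas HSPA5 and ATF4 overlapped in both stages. CANX at 257 ± 13 and 226 ± 33 FPKM came next, before CCT7, CCT3, PDIA6, CALR and CCT8, whose means over 6 libraries were 203, 196, 183, 179 and 157 FPKM. Among the small heat shock proteins HSPB8 was highest with 105 ± 7.6 and 148 ± 18 FPKM, above HSPB1 at 55.6 ± 3.0 and 98.8 ± 29 FPKM, while CRYAB was at 5.53 ± 0.37 and 7.11 ± 1.9 FPKM. SDF2L1 was low for an ER member, at 4.86 ± 0.66 and 9.72 ± 1.2 FPKM. TRIB3 and HSPA6 were the lowest tested members, at 0.489 and 0.832 FPKM over all libraries. DNAJB8, DNAJC5B and PDIA2 had 0 counts in all 6 libraries, and DNAJB7, DNAJC5G and DNAJC22 had at most 8 in any. ARHGDIG, with 1004 to 1402 counts per library, overlaps PDIA2 over 2903 nt on the same strand. An unnamed gene with 11 to 45 counts overlaps HSPA6 over 2444 nt on the same strand. How reads in such overlaps were assigned is not stated, so the counts of PDIA2 and HSPA6 may understate their expression. In all, 17 members overlap another gene, and 1 of them, HSPB1, was called. An unnamed gene overlaps HSPA14 over 4036 nt on the same strand. SLC35B2, with 894 to 1204 counts, overlaps HSP90AB1 over 2927 nt on the opposite strand. Since the kit does not mark strand, the counts of these members may be affected too. Some gene models hold little more than the coding sequence and others long ends, which shifts FPKM between genes but not between stages.

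**Figure D4:**
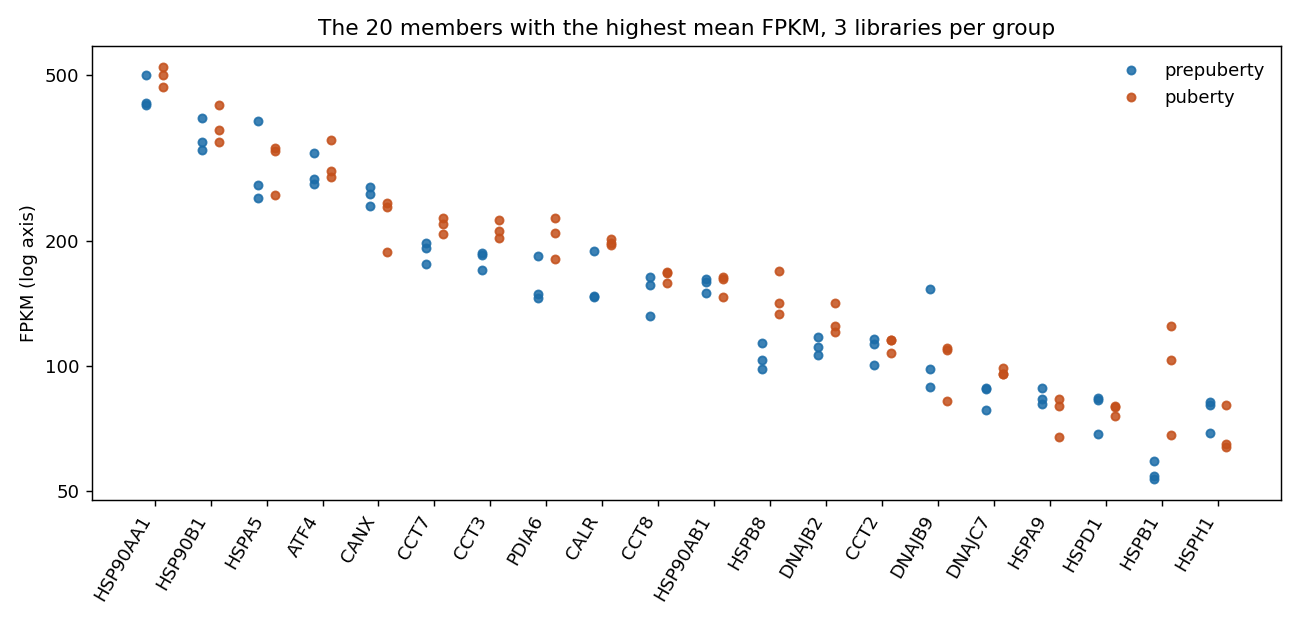
FPKM (y axis, log scale) of the 20 members with the highest mean (x axis, by falling mean), prepuberty in blue and puberty in orange, with 1 point per library. HSP90AA1, HSP90B1, HSPA5 and ATF4 lead, and in this set the groups of CCT7, CCT3, CALR, HSPB8, DNAJB2, DNAJC7 and HSPB1 do not overlap. Of these only HSPB8 and HSPB1 were called. By CPM, groups did not overlap upward for 17.2% and downward for 17.6% of all tested genes.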

How the data were processed

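Per the labels' protocols, TRIzol was used to isolate total RNA and a NEBNext Ultra RNA kit, which does not mark strand, to make libraries. Whether counting used strand is not stated in the sources at hand. CASAVA 1.8 and fastp are listed in the submitters' processing notes, as are HISAT2 2.0.5, featureCounts 1.5.0-p3, DESeq2 1.20.0 and the human builds GRCh38 and hg38, although gene identifiers are those of goat. In the deposited count table the authors give raw counts for each gene. The deposited FPKM table holds the authors' FPKM values, which equal count over listed length and a constant in the 1 library where this was checked.

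Genes were kept by edgeR's filterByExpr (minimum count 10), given TMM factors, and compared by the robust quasi-likelihood test of edgeR 4.0.16 (R 4.3.3) with no covariate. The common biological coefficient of variation was 0.18. SEs were derived from log2 change and F, and intervals are 95% intervals. Length offsets were a lowess (span 0.3) of the log2 CPM deviation (prior count 2) on log2 length. Alternatives used DESeq2 1.42.0 and limma 3.58.1. Scripts were tested on simulated data. Replicate numbers did not pair the samples. Chi-square per degree of freedom was 16.5 to 36.9 between libraries of a stage, so none was a copy.

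Members, compartments, lists and tests were chosen with earlier results of these data known. Named genes are the called members, the 10 with the highest FPKM, a set of key members, and up to 4 called genes per list. CRELD2, EDEM3, VBP1, MANF, ATF6, ERN1, HSF1, HSF2 and members named to complete a family were chosen after their values were seen. Locations in the cell were assigned by symbol from general knowledge.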

Additional observations from a re-analysis of the deposited data

How the results depend on the processing

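Calls moved with the processing more than directions did. With the replicate number as a block, 366 genes were higher and 354 lower in place of 971 and 935, with 1 member higher and 0 lower; replicate numbers did not pair the libraries (same-number correlations of deviations 0.053, -0.097 and -0.096). SDF2L1 was called under the block, while adjusted p was 0.057 for HSPB1, 0.073 for HSPB8, 0.052 for HSPA4L and 0.051 for DNAJC13. At an adjusted p under 0.1 there were 1628 and 1617 genes and 5 and 5 members. Length offsets gave 475 and 455 genes, and 1 member lower. Lower members numbered 4 with no count filter, which added HSPA13 and the low-count CCT8L2, and 6 by DESeq2. For none of these was the cause tested.

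Leaving out each library in turn gave 0 to 729 higher and 0 to 540 lower genes, and 0 to 4 and 0 to 2 members. Fewer libraries are by construction less able to make calls. Class medians of the log2 change ran from -0.0555 to 0.155 for ER and from 0.0464 to 0.1159 for cytosolic members. Among the key members, log2 changes that crossed 0 ran from -0.0155 to 0.1663 for ATF4, -0.3063 to 0.1155 for DNAJB9, -0.0468 to 0.389 for HERPUD1, -0.0254 to 0.0519 for HSP90AB1, -0.0035 to 0.1723 for HSP90B1, -0.0954 to 0.2335 for HSPA5, -0.0235 to 0.155 for PDIA4, -0.0755 to 0.059 for HSPD1 and -0.1136 to 0.1393 for HYOU1. DNAJC3, CCT2, DNAJB12, DNAJB13, HSPA1L and HSPA6 crossed 0 too. No gene named here as crossing 0 was called in any of these fits.

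HSPD1, at -0.001, was 0.0019 with no count filter, 0.0084 with a filter of 1 CPM, 0.0043 by limma-voom, 0.0065 and 0.0067 on log2(FPKM + 1) and log2(FPKM + 0.1), 0.0042 under the block and 0.087 with length offsets. HYOU1, at -0.0082, was 0.0005 with the 1 CPM filter and 0.0542 with length offsets. Low counts limit TRIB3 and HSPA6, at 7 to 46 counts per library.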
